A study of Mus musculus with 4 samples.

Results

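Intergenic ATAC-seq peaks, those that touch no protein-coding gene, were followed in mouse CD8+ T cells edited at Prdm12 and in control cells. A peak was taken as intergenic when it overlapped no protein-coding gene span in the RefSeq annotation of GRCm38. It also had to lie more than 1000 bases from every protein-coding gene end. Both limits of a span count as ends here, so gene starts are included. Of the 3187 peaks in the deposited table, 600 (18.8%) met this rule. They were split by the distance to the nearest gene span: 115 lay up to 10 kb away, 256 lay 10 to 100 kb away and 229 lay over 100 kb away. The 3 very tall regions next to the ribosomal RNA pseudogene Rn18s-rs5 on chromosome 17 were left out. Among the deposited peaks, the choice used positions only and no read count. The deposited peaks themselves come from peak calling, so reads may have decided which regions are listed.

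The groups were sgPrdm12, CD8+ T cells electroporated with Cas9 protein and a Prdm12 guide (genotype label Prdm12-ko), and sgNTC, the same kind of cells given the guide labelled sgNTC (genotype label Prdm12-wt). Both came from the spleen of OTI:Cas9 mice, so every cell also carried the OTI and Cas9 alleles, whose promoters the labels do not describe. The design text describes the controls as non-edited cells, whereas the protocol names sgNTC among the electroporated guides, so whether control cells met a guide rests on that protocol. Each group had 2 libraries, and replicate 1 of each group belonged to batch 1 and replicate 2 to batch 2. The labels give no animal or culture for a library and no time after editing, so a p-value here reflects how far the 4 libraries differ, and that may be technical. Prdm12 encodes a zinc finger protein with a PR domain, best known from pain-sensing neurons. Prdm12 itself had no peak within 10 kb, so the edit could not be checked, and the peak nearest to it was not an intergenic one and lay 32077 bases away.

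Open chromatin outside genes can mark enhancers, which raise transcription of a gene at a distance, insulators, and the promoters of genes that make noncoding RNA. In T cells, well-known distal elements include the enhancers downstream of the T cell receptor constant region genes. Long noncoding RNA (lncRNA) genes, and transfer RNA genes, which RNA polymerase III transcribes, are not protein-coding, so their promoters count as intergenic here. T cell receptor and immunoglobulin segments also carry other biotypes in RefSeq and did not count as protein-coding genes.

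Outside the 3 ribosomal regions the sgPrdm12 libraries held 26843 and 18909 reads, and the sgNTC libraries held 26331 and 53802 reads. Levels are given as raw reads or as reads per 10000 of these reads. A peak without a read can still have a level of up to 1.12 and 1.59 per 10000 in the sgPrdm12 libraries and 1.14 and 0.558 in the sgNTC libraries (3 reads). Of 14 CD8 T cell markers, 3 had a peak within 10 kb (Cd3g, Trac and Trbc2), while Cd8a, Cd8b1 and Cd3e were among those without one. Peaks of this list summed to 11.9 and 11.6 reads per 10000 in sgPrdm12, and to 10.3 and 10.2 in sgNTC. No peak lay within 10 kb of any of 8 B cell markers. Markers of CD4, regulatory and gamma delta T cells had peaks at 3 of 7 genes (Zbtb7b, Ikzf2 and Sox13; Cd4 and Foxp3 had none), with 1.12 and 10.0 reads per 10000 in sgPrdm12 and 1.52 and 2.42 in sgNTC. The myeloid list had 1 of 10 (Cebpb), the NK list 1 of 5 (Klri2) and the erythroid and platelet list 1 of 7 (Tfrc). The part of these cells in the results below was not tested, and in such bulk samples fewer cells of a type and less signal per cell cannot be told apart.

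The promoters of lncRNA genes were the best defined group of intergenic peaks. Of the 600 peaks, 25 overlapped the start window of a lncRNA gene (250 bases before to 50 bases after its annotated start, RefSeq, GRCm38.p6). Another 112 overlapped a noncoding gene away from such a window, and 463 (77.2%) touched no annotated gene. The following stretches are the parts of 6 such windows that lay under a peak, written 5′ to 3′ along the lncRNA. They include the lncRNA start peak with the highest mean level in each distance class (Gm38882, Gm36445 and Gm26901), those with an unadjusted p under 0.05 (Gm13421 and Gm36445), and 2 better-known lncRNAs. Snhg8 is a host gene of a small nucleolar RNA, and Chaserr is a lncRNA next to Chd2, whose expression it restrains in mice. Capitals mark the GGGCGG box bound by SP and KLF factors, the ETS core CCGGAAG and the CCAAT box, on either strand.
Gm38882 (chr6:117879383-117879682, plus strand): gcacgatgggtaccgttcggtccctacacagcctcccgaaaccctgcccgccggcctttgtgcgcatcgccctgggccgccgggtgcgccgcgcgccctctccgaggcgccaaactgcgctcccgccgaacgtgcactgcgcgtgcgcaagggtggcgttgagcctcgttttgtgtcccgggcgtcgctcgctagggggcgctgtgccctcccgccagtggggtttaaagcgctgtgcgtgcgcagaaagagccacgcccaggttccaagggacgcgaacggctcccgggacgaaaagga
Gm13421 (chr2:27540176-27540475, plus strand): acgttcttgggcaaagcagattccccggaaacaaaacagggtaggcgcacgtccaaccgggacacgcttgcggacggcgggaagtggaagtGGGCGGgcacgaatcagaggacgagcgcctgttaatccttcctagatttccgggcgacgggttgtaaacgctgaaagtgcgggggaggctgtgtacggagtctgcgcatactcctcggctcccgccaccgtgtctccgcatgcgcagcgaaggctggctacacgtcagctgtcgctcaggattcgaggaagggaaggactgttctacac
Snhg8 (chr3:123508293-123508586, minus strand): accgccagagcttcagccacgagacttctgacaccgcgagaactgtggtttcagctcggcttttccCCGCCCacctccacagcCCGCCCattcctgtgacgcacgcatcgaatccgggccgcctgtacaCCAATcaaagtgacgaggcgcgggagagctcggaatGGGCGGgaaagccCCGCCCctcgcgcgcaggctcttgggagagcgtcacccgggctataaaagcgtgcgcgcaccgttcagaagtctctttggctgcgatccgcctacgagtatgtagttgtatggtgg
Gm36445 (chr13:65241265-65241564, plus strand): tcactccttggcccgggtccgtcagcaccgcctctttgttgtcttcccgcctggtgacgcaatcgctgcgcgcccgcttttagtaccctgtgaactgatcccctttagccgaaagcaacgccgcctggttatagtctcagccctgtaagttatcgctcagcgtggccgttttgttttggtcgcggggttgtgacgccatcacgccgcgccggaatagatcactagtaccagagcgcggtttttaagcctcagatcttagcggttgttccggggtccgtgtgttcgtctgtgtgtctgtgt
Chaserr (chr7:73558567-73558645, minus strand): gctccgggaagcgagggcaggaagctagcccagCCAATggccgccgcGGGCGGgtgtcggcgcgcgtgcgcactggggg
Gm26901 (chr1:7398047-7398160, minus strand): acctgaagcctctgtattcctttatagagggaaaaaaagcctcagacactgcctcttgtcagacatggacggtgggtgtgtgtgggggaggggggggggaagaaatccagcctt

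The stretches of Gm38882, Gm36445 and Gm26901 held none of the 3 motifs in capitals. As a group, the 25 windows were rich in G and C. Their median GC content was 60.7%, against 56.3% in 21263 windows of protein-coding genes and 48.3% in 11588 windows of noncoding genes. Taken whole, 19 of the 25 windows (76.0%) held GGGCGG on either strand. That sequence was found in 35.7% of all 32851 windows, 46.2% of the protein-coding ones and 16.3% of the noncoding ones. The ETS core CCGGAAG was in 5 of 25 windows, against 8.86% of all, 11.6% of protein-coding and 3.89% of noncoding windows. CCAAT was in 12 of 25, against 37.4% of all, 38.2% of protein-coding and 36.0% of noncoding windows. No motif comparison here was matched for GC content. The E-box CACGTG was in 7 of 25 windows (7.15% of all and 5.89% of noncoding windows). The RUNX sequence TGTGGT was in 6 (16.8% of all and 20.0% of noncoding windows). The AP-1 sequence TGANTCA was in 3 (7.81% of all and 9.31% of noncoding windows). The cyclic AMP response element TGACGTCA was in none, against 1.79% of all windows. Each motif was searched on its own on both strands, overlaps between motifs were kept, and a match is not a binding site.

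All 25 lncRNA start peaks held reads in all 4 libraries. Their median level was 3.73 and 3.17 reads per 10000 in the sgPrdm12 libraries and 3.80 and 3.90 in the sgNTC libraries. Gene-end peaks lay no more than 1000 bases from where a protein-coding span begins or finishes, so the class includes peaks at gene starts. The medians of gene-end peaks were 3.73 and 3.17 in sgPrdm12 and 3.42 and 3.72 in sgNTC. In raw reads the lncRNA start peaks exceeded the gene-end peaks by 0 to 1 read at the median (exact two-sided sign-flip permutation over 4 libraries, p = 0.5). They exceeded the 463 peaks outside any annotated gene in every library, by 9 and 1 reads in sgPrdm12 and by 8 and 19 reads in sgNTC (p = 0.125, exact, the smallest this test can give).

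The lncRNA start peak at Gm38882, 6533 bases from Zfp239 on chromosome 6 (117879299 to 117880165), held 22 and 17 reads in sgPrdm12 and 23 and 45 reads in sgNTC. Scaled for depth it had a log2 fold change of 0.08 ± 0.30 (SE). The start of Gm13421 near Wdr5, a subunit of histone methyltransferase complexes (chromosome 2, 27539951 to 27540614), held 30 and 16 reads in sgPrdm12 and 11 and 41 reads in sgNTC. Its levels were 11.2 and 8.46 per 10000 in sgPrdm12, above the 4.18 and 7.62 in sgNTC. Gm26901 (chromosome 1, 7397471 to 7398160), 223843 bases from Pcmtd1, was the tallest lncRNA start over 100 kb from a gene, with 15 and 16 reads in sgPrdm12 and 20 and 34 in sgNTC. The peak at Chaserr (chromosome 7, 73558567 to 73558994) held 7 and 5 reads in sgPrdm12 and 8 and 16 in sgNTC, and that at Snhg8 (chromosome 3, 123508293 to 123508752) held 3 and 5 against 4 and 18. The start of Lockd, a lncRNA downstream of the cell cycle inhibitor gene Cdkn1b, held 14 and 6 reads in sgPrdm12 and 11 and 26 in sgNTC. In reads per 10000 the groups overlapped at Gm38882, Gm26901, Snhg8 and Lockd, both sgPrdm12 libraries were higher at Gm13421, and both were lower at Chaserr (2.61 and 2.64 in sgPrdm12, 3.04 and 2.97 in sgNTC).

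As a class, lncRNA starts took a steady share of the reads. The 25 peaks held 1.08% (0.960 to 1.21, 95% Wilson) and 0.941% (0.813 to 1.09) of all reads in the sgPrdm12 libraries. In the sgNTC libraries they held 1.01% (0.893 to 1.13) and 1.05% (0.967 to 1.14). They averaged 1.01% ± 0.096 in sgPrdm12 and 1.03% ± 0.031 in sgNTC (SD, n = 2; exact two-sided permutation p = 1.0). The 463 peaks in no annotated gene held 4.61% (4.36 to 4.87) and 9.83% (9.42 to 10.3) in sgPrdm12, and 6.19% (5.90 to 6.48) and 4.22% (4.05 to 4.39) in sgNTC. The highest and the lowest of these 4 values both came from batch 2. Intervals cover counting error only.

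**Figure D1:**
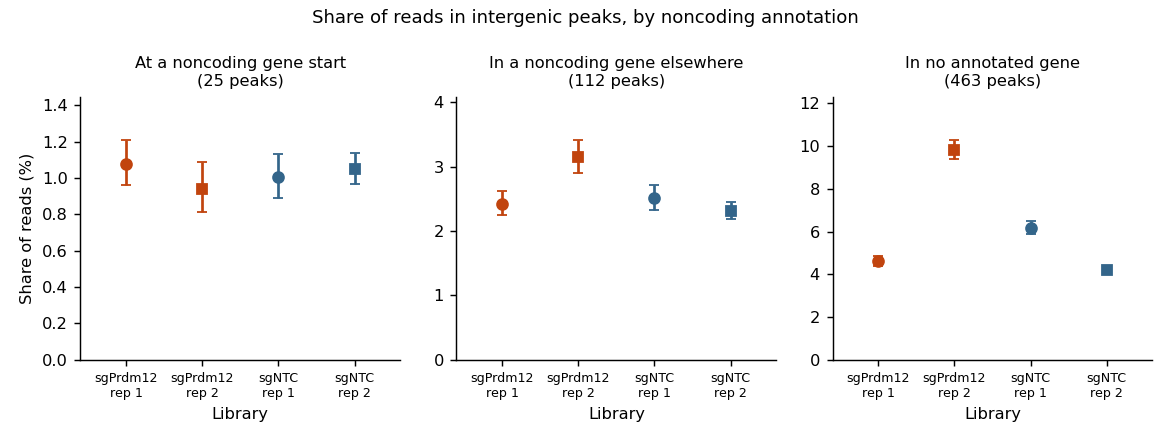
Share of reads (%) in each library that fell in intergenic peaks at a noncoding gene start, elsewhere in a noncoding gene, or in no annotated gene; points are libraries and bars are 95% Wilson intervals, each panel with its own axis from 0. The start windows under these peaks were all of lncRNA genes, so a tRNA peak such as that over n-TVaac7 counts as elsewhere, though it may cover the tRNA gene's start. The start peaks stayed between 0.941% and 1.08%, while peaks in no annotated gene had 9.83% in sgPrdm12 replicate 2 and 4.22% in sgNTC replicate 2, the highest and the lowest value.

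Transfer RNA genes formed a second annotated group. There were 10 intergenic peaks over tRNA genes, 7 of them up to 10 kb from a protein-coding gene, and all 10 held reads in all 4 libraries. Together they held 91 and 68 reads in sgPrdm12 and 74 and 170 in sgNTC, or 0.339% and 0.360% of the reads in sgPrdm12 and 0.281% and 0.316% in sgNTC. Both sgPrdm12 shares lay above both sgNTC shares (exact permutation p = 0.333, the smallest that 2 libraries against 2 can give), and all 4 Wilson intervals overlapped. Of the 10 tRNA peaks, 3 had enough reads to be tested singly. The tested one with the lowest unadjusted p lay over n-TVaac7, a valine tRNA gene (chromosome 11, 48856388 to 48856874), 5196 bases from Trim7. It held 22 and 9 reads in sgPrdm12 and 7 and 20 reads in sgNTC, or 8.20 and 4.76 per 10000 against 2.66 and 3.72. A peak over a leucine tRNA gene, n-TLtag1 (chromosome 7, 120835206 to 120835810), had the highest mean level of the 10 (4.98 per 10000), with 17 and 10 reads in sgPrdm12 and 13 and 18 in sgNTC.

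Distal peaks were found beside the constant region genes of both T cell receptor chains that CD8+ T cells use. These peaks were picked out after their values had been seen. The first lay 3645 bases from Trac, the constant region gene of the alpha chain, and 7257 bases from Dad1, a gene of protein glycosylation (chromosome 14, 54227843 to 54228228). The enhancer of the alpha locus is known to lie in this interval, but whether the peak covers it was not examined. The peak held 13 and 11 reads in sgPrdm12 and 5 and 11 reads in sgNTC, which gave 4.84 and 5.82 per 10000 in sgPrdm12 and 1.90 and 2.04 in sgNTC. Both sgPrdm12 libraries were above both sgNTC libraries, but the difference did not pass the test (log2 fold change 1.47 ± 0.70 SE; edgeR adjusted p = 0.927). The second peak lay 6250 bases from Trbc2, a constant region gene of the beta chain, and 2990 bases from the variable segment Trbv31 (chromosome 6, 41554431 to 41554703). The enhancer of the beta locus is known to lie between these genes. It held 11 and 8 reads in sgPrdm12 and 12 and 23 in sgNTC, or 4.10 and 4.23 per 10000 in sgPrdm12 and 4.56 and 4.27 in sgNTC. This peak was tested and not called (edgeR adjusted p = 0.997).

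A peak 31129 bases from Ptpdc1 on chromosome 13 (48546055 to 48546740) lay upstream of a cluster of let-7 microRNA genes, which are on the minus strand. MicroRNAs of the let-7 family repress mRNAs that pair with their seed. The peak was 7783 bases from Mirlet7a-1, 8138 from Mirlet7f-1 and 9941 from Mirlet7d. It held 22 and 13 reads in sgPrdm12 and 20 and 29 reads in sgNTC, or 8.20 and 6.88 per 10000 in sgPrdm12 and 7.60 and 5.39 in sgNTC, so the groups overlapped. Only 2 other intergenic peaks lay within 10 kb of an annotated microRNA hairpin (Mir6363 and Mir1187). The 3 mature let-7 sequences of this cluster share 1 seed, shown in capitals (bases 2 to 8; RefSeq, GRCm38.p6).
mmu-let-7a-5p: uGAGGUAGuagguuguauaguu
mmu-let-7d-5p: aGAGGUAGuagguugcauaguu
mmu-let-7f-5p: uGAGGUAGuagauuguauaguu

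Some intergenic peaks had a gene from lists of T cell genes and of other cell types as the nearest protein-coding gene. How many of all protein-coding genes were nearest to an intergenic peak was not counted, so the counts below show neither excess nor lack. Of 189 genes in 11 lists, 13 were nearest to an intergenic peak, with 15 peaks in all, of which 2 were tested and 0 called (0.0% of the 1125 tested peaks of the whole table were called). Of 44 T cell transcription factor genes, 8 were nearest to 10 peaks (Bach2, Bcl6, Ets1, Fos, Id2, Runx1, Satb1 and Zeb2). The peak 18152 bases upstream of Fos, an AP-1 subunit (chromosome 12, 85455299 to 85455738), held 11 and 7 reads in sgPrdm12 and 10 and 24 in sgNTC. That 34440 bases upstream of Gzmb, which encodes the killing protease granzyme B (chromosome 14, 56296774 to 56297207), held 12 and 3 reads in sgPrdm12 and 9 and 23 in sgNTC. The log2 fold changes of these peaks were -0.03 ± 0.47 and -0.22 ± 0.58 (SE; edgeR adjusted p = 0.997 for both).

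The peak 21661 bases upstream of Ifng, the interferon gamma gene (chromosome 10, 118419098 to 118419385), held 5 and 4 reads in sgPrdm12 and 2 and 17 in sgNTC. Near Bach2, a repressor that keeps T cells quiescent, a peak 1830 bases downstream (chromosome 4, 32587939 to 32588224) held 8 and 2 reads in sgPrdm12 and 5 and 6 in sgNTC. Both were below the filter, as were the peaks nearest to Il18r1, an interleukin 18 receptor subunit, and to Cebpb, a myeloid factor. Of the 2 peaks nearest to Ets1, a T cell transcription factor gene, each took most of its reads from a different library. One Ets1 peak (chromosome 9, 33249861 to 33250429) had 1 and 0 reads in sgPrdm12 and 8 and 2 in sgNTC. The other Ets1 peak (33409537 to 33409925) had 0 and 7 reads in sgPrdm12 and 1 and 1 in sgNTC. The peak nearest to Zeb2, which is needed for full effector differentiation of CD8+ T cells, lay 93251 bases upstream and held 0 and 7 reads in sgPrdm12 and 0 and 2 in sgNTC. The lists of T cell receptor and coreceptor genes, inhibitory and homing receptors, PRDM and histone methyltransferase genes, B cell genes, erythroid and platelet genes, and CD4, regulatory and gamma delta T cell genes were nearest to no intergenic peak. The list of sensory neuron genes had 1 (Runx1, shared with the transcription factor list), as did the NK list (Klri2). T cell receptor constant region genes such as Trac and Trbc2 do not count as protein-coding here, so none could be a nearest gene.

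A few tall peaks stood far above the rest. Whether these regions are repeated in the genome, so that reads of several copies pile up there, was not examined, here or for other peaks. A tall peak is thus not necessarily a distal element. The tallest intergenic peak (chromosome 11, 109011647 to 109012122) lay in the lncRNA gene Gm36876, 60864 bases from Axin2. It held 127 and 85 reads in sgPrdm12 and 137 and 255 in sgNTC, which is 47.3 and 45.0 per 10000 in sgPrdm12 and 52.0 and 47.4 in sgNTC. Next came a peak 1030694 bases from Lrrc4c (chromosome 2, 98662366 to 98662922), with 61 and 45 reads in sgPrdm12 and 45 and 66 in sgNTC. In reads per 10000 it had 22.7 and 23.8 in sgPrdm12, above the 17.1 and 12.3 in sgNTC. The third lay in the lncRNA gene Gm40034 (chromosome 2, 181917583 to 181918141), with 55 and 34 reads in sgPrdm12 and 42 and 89 in sgNTC.

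A pair of neighbouring peaks lay 21177 and 22301 bases downstream of Ly6c2, which encodes a surface protein of memory CD8+ T cells (chromosome 15, 75086709 to 75086984 and 75085510 to 75085860). The nearer peak held 36 and 35 reads in sgPrdm12 and 34 and 80 in sgNTC, and the farther one held 23 and 24 in sgPrdm12 and 33 and 54 in sgNTC. Such pairs were rare: 4 pairs of intergenic peaks lay within 5000 bases of each other. The peak over the pseudogene Pisd-ps2 (chromosome 17, 3081579 to 3082387) held 19 and 13 reads in sgPrdm12 and 29 and 55 in sgNTC, and both sgPrdm12 levels (7.08 and 6.88 per 10000) were below both sgNTC levels (11.0 and 10.2). The 8 tallest intergenic peaks took 16.6% and 10.4% of all intergenic reads in sgPrdm12, and 14.7% and 17.2% in sgNTC. The other 2 of the 8 lay 281762 bases from Pex2 and 1179 bases from Midn.

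**Figure D2:**
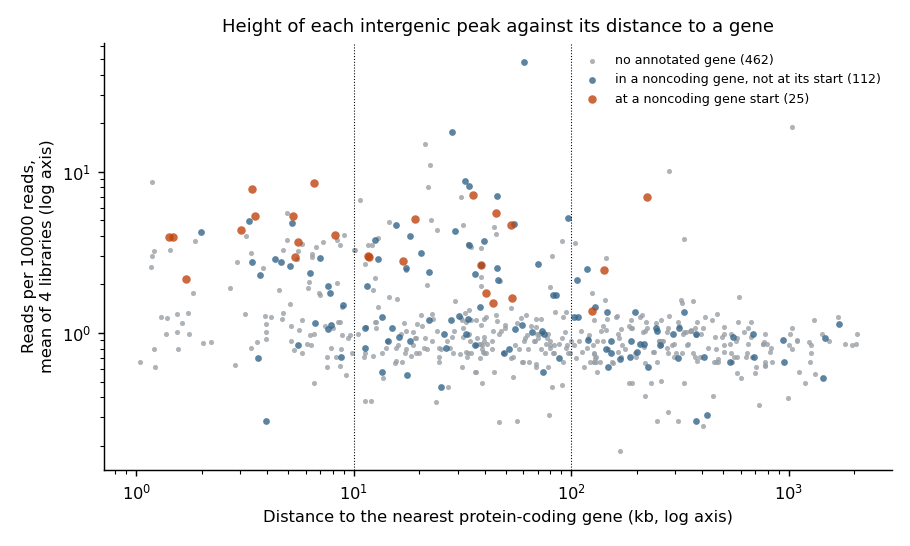
Mean level over the 4 libraries (reads per 10000, log axis) of each of the 599 intergenic peaks with a read, against the distance to the nearest protein-coding gene (kb, log axis); dotted lines mark 10 and 100 kb, and colours mark noncoding annotation. Most peaks lay near 1 read per 10000 at every distance, and the tallest, in Gm36876, averaged 47.9.

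Intergenic peaks were lower than gene-end peaks in every distance class. The median of the 4-library mean was 1.34 reads per 10000 up to 10 kb, 0.992 at 10 to 100 kb and 0.851 over 100 kb, against 3.39 at gene-end peaks. Within libraries the class medians, from near to far, were 1.12, 0.373 and 0.373 in sgPrdm12 replicate 1 and 2.64 in each class in sgPrdm12 replicate 2. They were 1.90, 1.14 and 0.380 in sgNTC replicate 1, and 1.30, 0.372 and 0.186 in sgNTC replicate 2. The order by distance thus did not hold in sgPrdm12 replicate 2. The median width was 337.5 bases for intergenic peaks, whose widths spanned 249 to 911 bases, and 417 bases for gene-end peaks. The median intergenic peak held 1 and 5 reads in sgPrdm12 and 2 and 2 reads in sgNTC, while the median gene-end peak held 10 and 6 reads in sgPrdm12 and 9 and 20 in sgNTC. The difference had the same sign in all 4 libraries (mean -8.75 ± 7.04 reads, SD; exact sign-flip permutation p = 0.125, the smallest it can give). Peaks inside genes away from their ends were low as well, with medians of 2 and 4 reads in sgPrdm12 and 4 and 3 in sgNTC. The intergenic median differed from these by -0.75 reads on average over the libraries (exact sign-flip permutation p = 0.5). Up to 10 kb the median was above in every library. Mean reads per peak gave lower intergenic values in every library: -1.89 and -0.653 in sgPrdm12, -1.82 and -4.16 in sgNTC (exact sign-flip permutation p = 0.125). Up to 10 kb the mean was below as well (-0.307 and -0.0312 in sgPrdm12, -0.741 and -0.532 in sgNTC). Those peaks inside genes held a read at 73.0% and 81.5% in sgPrdm12, and at 82.0% and 88.9% in sgNTC. A read was found at 64.5% and 80.0% of intergenic peaks in sgPrdm12, and at 72.0% and 79.2% in sgNTC, against 97.0% to 99.8% of gene-end peaks (mean difference -24.6 percentage points; exact p = 0.125). The shallowest library, sgPrdm12 replicate 2, thus covered the most intergenic peaks. At the depth of that library the expected shares were 56.9% in sgPrdm12 replicate 1, and 66.7% and 54.5% in sgNTC.

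Distal peaks often rested on 1 library. A peak was counted so when 1 library gave 5 reads or more and the remaining 3 gave no more than 2 combined. Of the 600 intergenic peaks 184 (30.7%) met this, against 0.504% of gene-end peaks and 23.1% of peaks inside genes away from their ends. The library with the reads was sgPrdm12 replicate 1 at 14 peaks, sgPrdm12 replicate 2 at 110, sgNTC replicate 1 at 54 and sgNTC replicate 2 at 6. In the class over 100 kb these numbers were 9, 57, 25 and 2 of 229 peaks. Up to 10 kb they were 0, 9, 7 and 1 of 115 peaks. Examples are a peak 37062 bases upstream of Rhoj (chromosome 12, 75270942 to 75271251), with 10 and 0 reads in sgPrdm12 and 0 and 0 in sgNTC, and a peak in Gm33655 (chromosome 4, 114618711 to 114618995), with 2 and 0 in sgPrdm12 and 0 and 11 in sgNTC. None of the 25 lncRNA start peaks and none of the 10 tRNA peaks was of this kind.

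**Figure D3:**
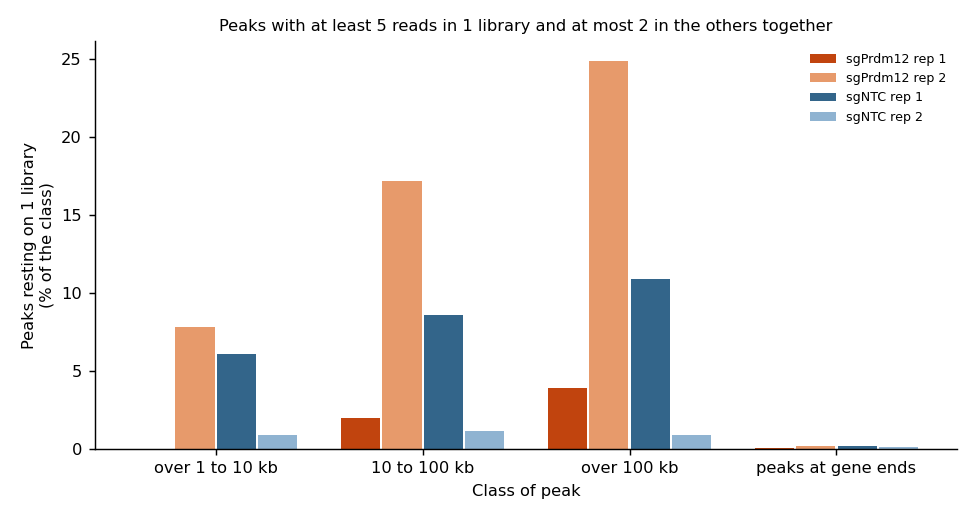
Share (%) of the peaks of each class with 5 reads or more in 1 library and no more than 2 in the remaining 3 combined; each bar is 1 library. In the class over 100 kb, sgPrdm12 replicate 2 reached 24.9% and sgNTC replicate 1 reached 10.9%, while bars at gene ends stayed at or below 0.202%.

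The peaks farthest from any gene were low in every library, though not all of them met the rule for resting on 1 library. A peak 2050892 bases from Olfm4 (chromosome 14, 82074033 to 82074513) held 1 and 6 reads in sgPrdm12 and 0 and 2 in sgNTC. A peak 2048195 bases from Pcdh9 (chromosome 14, 90965170 to 90965505) held 1 and 0 in sgPrdm12 and 8 and 0 in sgNTC. The next ones lay nearest to Celf4, Zeb2 and Cdh20, with 0 to 6 reads in any library. At the other limit of the rule, the closest intergenic peaks lay 1036 bases from Vmn1r232 (0 and 0 reads in sgPrdm12, 7 and 0 in sgNTC), 1174 from Dusp6 (2 and 6, against 8 and 18) and 1176 from Elobl (2 and 11, against 6 and 17). Just short of 1000 bases were peaks 993 bases from Lrp10 (0 and 6 reads in sgPrdm12, 1 and 0 in sgNTC), 801 from Mex3b (18 and 5, against 12 and 26) and 731 from Mrps33 (6 and 0, against 0 and 0). Peaks on both sides of the limit thus included ones that rest on 1 library.

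Intergenic peaks were spread over all 20 chromosomes with peaks, from 10 of 31 peaks on X (32.3%) to 27 of 256 on chromosome 11 (10.5%). Chromosome 14 had 35 of 116 (30.2%) and chromosome 1 had the most, 53 of 215. Of the 477 intergenic peaks whose nearest gene has a known strand here, 268 lay upstream of it and 209 downstream. Up to 10 kb the counts were 48 and 50, at 10 to 100 kb 118 and 79, and over 100 kb 102 and 80.

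Over all 600 peaks, the share of reads in intergenic peaks did not separate sgPrdm12 from sgNTC cells. All 600 peaks together took 8.11% (7.79 to 8.44, 95% Wilson) and 13.9% (13.4 to 14.4) of all reads in sgPrdm12, and 9.70% (9.35 to 10.1) and 7.58% (7.36 to 7.81) in sgNTC. The sgPrdm12 libraries were thus the highest and the third of the 4. The means were 11.0% ± 4.11 in sgPrdm12 and 8.64% ± 1.5 in sgNTC (SD, n = 2; two-sided exact permutation p = 0.667, with 0.333 the smallest possible), so the difference of 2.37 percentage points was smaller than the spread between the sgPrdm12 libraries. Within batches it was -1.60 in batch 1 and 6.34 in batch 2, which are opposite directions. Peaks inside genes away from their ends also changed direction (-1.53 and 3.78). For intergenic peaks, leaving out sgPrdm12 replicate 2 gave -0.536 percentage points, and keeping only peaks that passed the count filter gave 0.356. Among those tested peaks both sgPrdm12 shares lay above both sgNTC shares (exact permutation p = 0.333), so the direction was the same in both batches. The groups also lay apart up to 10 kb (0.130) and over 100 kb (0.164; exact permutation p = 0.333 for both). At 10 to 100 kb they did not (0.0616, exact permutation p = 0.667).

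The spread between libraries grew with distance. Up to 10 kb the shares were 2.23% and 3.05% in sgPrdm12 and 2.33% and 2.23% in sgNTC. At 10 to 100 kb they were 4.43% and 6.16% in sgPrdm12 and 4.89% and 4.16% in sgNTC. Over 100 kb they were 1.45% (1.31 to 1.60) and 4.72% (4.42 to 5.03) in sgPrdm12, and 2.48% (2.30 to 2.67) and 1.19% (1.10 to 1.28) in sgNTC. The ratio of sgPrdm12 to sgNTC in batch 1 was 0.957, 0.906 and 0.583 in the 3 classes from near to far, and in batch 2 it was 1.37, 1.48 and 3.97. Among peaks 10 to 100 kb away, the 64 in or at the start of a noncoding gene held 2.18% and 2.24% in sgPrdm12 and 2.13% and 2.17% in sgNTC. The other 192 of that class held 2.25% and 3.92% in sgPrdm12 and 2.76% and 2.0% in sgNTC. Over 100 kb the annotated peaks varied as the others did: the 42 in or at the start of a noncoding gene held 0.283% and 0.836% in sgPrdm12 and 0.528% and 0.283% in sgNTC, with ratios of 0.536 in batch 1 and 2.96 in batch 2. The 187 without annotation had ratios of 0.595 and 4.28. The exact permutation p was 0.667 for each distance class and for the peaks in no annotated gene. Over the 7 shares compared here, Benjamini-Hochberg adjustment gave an exact permutation p of 0.778 for all but the lncRNA starts, which stayed at 1.0.

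**Figure D4:**
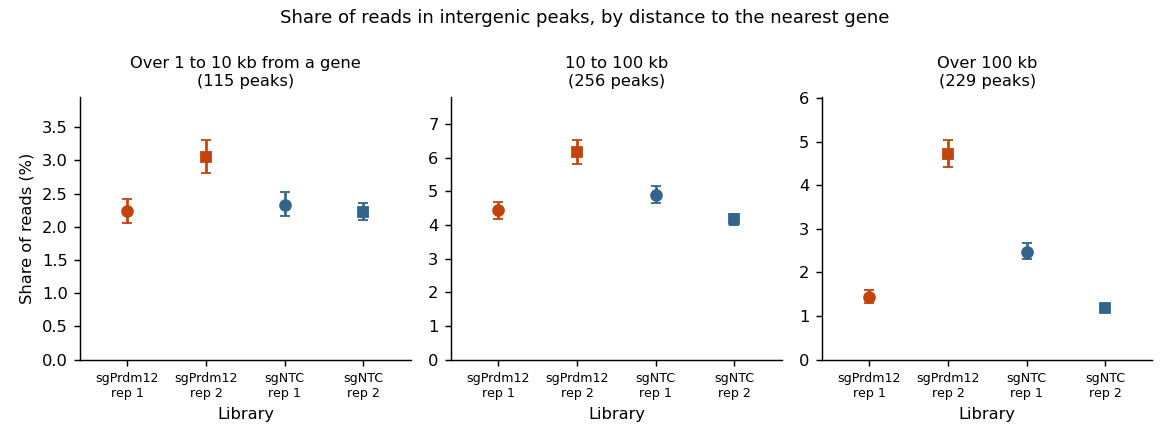
Share of reads (%) in each library that fell in intergenic peaks over 1 to 10 kb, 10 to 100 kb and over 100 kb from the nearest protein-coding gene; points are libraries, bars are 95% Wilson intervals, and each panel has its own axis from 0. Replicate 2 of sgPrdm12 was highest in all 3 panels, and over 100 kb it had 4.72%, against 1.19% in sgNTC replicate 2, the lowest value.

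No intergenic peak differed past the threshold between the groups. The whole table was fitted with edgeR (quasi-likelihood F test, Benjamini-Hochberg), and of 1125 peaks with enough reads 0 (0.0%) passed at 0.05. Among the 600 intergenic peaks 62 had enough reads to be tested, 22 up to 10 kb, 35 at 10 to 100 kb and 5 over 100 kb. Of these, 0 were called, with no edgeR adjusted p below 0.853. Before adjustment, 5 of the 62 had p under 0.05 and were higher in sgPrdm12, and 0 were lower, where over all tested peaks 34 (3.02%) were higher and 23 (2.04%) were lower, 57 (5.07%) in all. DESeq2's Wald test, without that filter, gave 0 calls over 3186 peaks (0.0%) and 6 intergenic peaks of 599 at an unadjusted p of 0.05, against 28 of 3186 (0.879%) overall. The median log2 fold change of the 62 was -0.02, with 27 above and 35 below 0, beside 0.02 over all tested peaks, and their median SE was 0.42.

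The 5 peaks with an unadjusted p under 0.05 were those at n-TVaac7 (log2 fold change 1.07 ± 0.39 SE), between Trac and Dad1 (1.47 ± 0.70), at Gm13421 (0.72 ± 0.32), 1030694 bases from Lrrc4c (0.79 ± 0.28) and at Gm36445, a lncRNA gene 35232 bases from Nlrp4f (0.83 ± 0.40). The edgeR adjusted p was 0.853 for n-TVaac7 and Lrrc4c and 0.927 for the other 3. Within batches 1 and 2 the log2 ratios were 1.64 and 0.51 at n-TVaac7, 1.36 and 1.67 between Trac and Dad1, 1.43 and 0.31 at Gm13421 and 0.42 and 1.11 near Lrrc4c. At Gm36445 (chromosome 13, 65240948 to 65241858) they were 1.15 and -0.50. That peak held 38 and 6 reads in sgPrdm12 and 17 and 27 in sgNTC, so its groups overlapped, and without sgPrdm12 replicate 1 its log2 fold change was -0.63. Without sgNTC replicate 2 the values were 1.27 at Gm13421 and 0.48 near Lrrc4c, without sgNTC replicate 1 Gm13421 had 0.47, and without sgPrdm12 replicate 1 n-TVaac7 had 0.68.

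Peaks with lower levels in sgPrdm12 did not reach an unadjusted p of 0.05 in edgeR. The peak in the lncRNA gene 3300005D01Rik, 38622 bases from Snx9 (chromosome 17, 5802454 to 5802702), held 2 and 4 reads in sgPrdm12 and 10 and 21 in sgNTC, with a log2 fold change of -1.43 ± 1.03. A peak 33629 bases from Lonrf1 (chromosome 8, 36182122 to 36182433) held 3 and 7 in sgPrdm12 and 12 and 26 in sgNTC (-1.0 ± 0.61). Pisd-ps2 had -0.51 ± 0.30. The peaks near Skor1, Tle3 and Ppp2r5c had -0.43 ± 0.53, -0.42 ± 0.49 and -0.34 ± 0.51, and those near Lrrc3b and Pex2, over 100 kb from a gene, had -0.28 ± 0.49 and -0.13 ± 0.31. On the positive side, the values were 0.59 ± 0.37 near Rps6ka1, 0.81 ± 0.62 near Zfat, 0.32 ± 0.27 in Gm40034 and 0.08 ± 0.36 at Gm26901. Several of these values moved when 1 library was left out. Without sgPrdm12 replicate 1 they were -0.69 near Snx9, -0.18 near Lonrf1, -0.069 near Skor1 and -0.57 near Lrrc3b, and without sgPrdm12 replicate 2 they were -2.36, -2.09, -0.78 and -0.16 in the same order. Zfat had 1.62 without sgNTC replicate 2 and 0.47 without sgNTC replicate 1. The edgeR adjusted p of the peaks with all libraries lay between 0.968 and 0.997. The 8 tallest peaks had log2 fold changes of -0.51 to 0.79, and Gm36876, the tallest, had -0.02 ± 0.19.

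**Figure D5:**
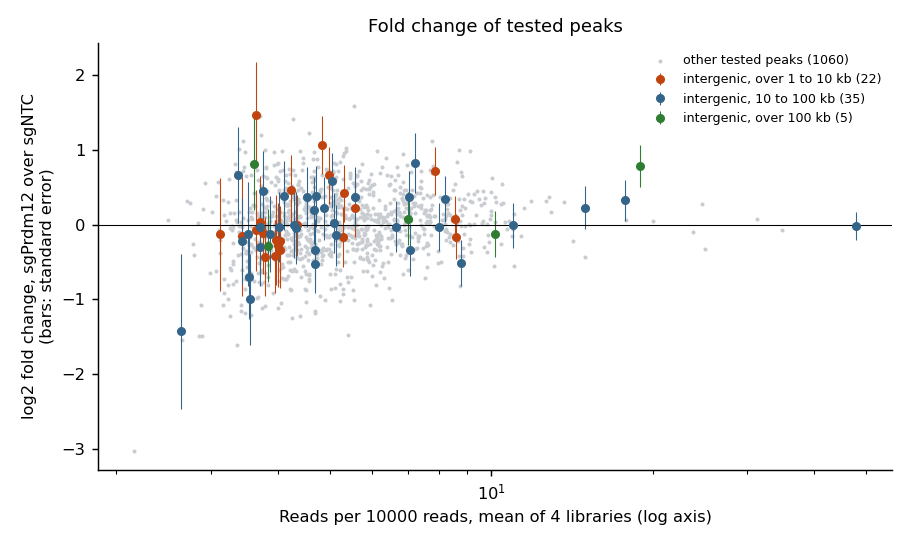
log2 fold change of sgPrdm12 over sgNTC (edgeR, bars are standard errors for intergenic peaks) against the mean level of each tested peak (reads per 10000, log axis); colours mark the distance classes and grey points are the other tested peaks outside the 3 ribosomal regions. The 62 intergenic peaks lay between -1.43 and 1.47, within the range of the grey points.

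Both sgPrdm12 libraries lay above both sgNTC libraries (reads per 10000) at 100 of the 600 intergenic peaks (16.7%), where 13.6% of all peaks did. Both lay below at 80 (13.3%), where 19.8% of all peaks did. A 95% normal interval around the log2 difference of the authors' deposited table left out 0 at 0 of the 600 intergenic peaks and at 1 of 3187 overall (0.0314%). The median log2 difference, sgPrdm12 minus sgNTC, in the authors' deposited table was -0.07 up to 10 kb, 0.19 at 10 to 100 kb and 0.82 over 100 kb, beside -0.14 over all peaks outside the ribosomal regions. The median standard error in the authors' deposited table was 1.71, 2.15 and 2.42 in the same order. It is the error of a single peak's difference and does not measure the error of a class median. Over 100 kb, sgPrdm12 replicate 2 held 4.72% of its reads and sgPrdm12 replicate 1 held 1.45%. The part of that library in the median was not tested.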

How the data were processed

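ATAC-seq read counts per peak were analysed for 4 libraries. Per the submitters' processing notes, the authors' tools included Bowtie2, MACS2, DiffBind and HOMER, with build GRCm38; versions, order and any pooling before peak calling are not stated there. Deposited read counts, all integers, entered the tests untouched. The authors' deposited log2 means, log2 differences and standard errors were only described. Reads elsewhere in the genome were not used here, so total depth is unknown.

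Peaks were placed against a RefSeq gene table of GRCm38.p6; the distance is the number of bases between the peak and the nearest gene span. The main test was edgeR 4.0.16 (R 4.3.3; quasi-likelihood, robust, TMM, filterByExpr minimum count 10, group as the only term) over the whole table, with Benjamini-Hochberg adjustment; DESeq2 1.42.0 was an alternative. A standard error is the log2 fold change over the root of F. Start windows on chromosome 18 were not used here. Shares were compared with exact two-sided permutation over libraries, and kinds of peak with exact sign flips within libraries. Per the labels, the replicate number is the batch, so it pairs the libraries; deviations from the group means of same-numbered libraries had a correlation of 0.058 over 1125 tested peaks.

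The named peaks were those with the lowest unadjusted p in each direction and class, the tallest, those at the limits of the rule, the farthest, those nearest to listed genes, those resting on 1 library, those in noncoding genes and close pairs, plus lncRNA starts, tRNA, T cell receptor and let-7 peaks chosen after their values were seen. The members and lists were chosen with earlier results of these data known.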

Additional observations from a re-analysis of the deposited data

Results flagged for a closer look

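The share of reads in intergenic peaks differed between sgPrdm12 and sgNTC in opposite directions in the batches. For all 600 peaks the share in sgPrdm12 exceeded that in sgNTC by 6.34 points in batch 2, and the same subtraction gave -1.60 points in batch 1. Up to 10 kb from a gene it was -0.100 in batch 1 and 0.818 in batch 2, at 10 to 100 kb -0.462 and 1.99, and over 100 kb -1.03 and 3.53. This was not particular to intergenic peaks. Peaks inside genes away from their ends gave -1.53 in batch 1 and 3.78 in batch 2, and gene-end peaks gave 3.12 and -10.1. A batch has 1 library of each guide, so whether the batches differ was not tested. Library sgPrdm12 replicate 2 had 18909 reads outside the ribosomal regions, the fewest of the 4, and 110 intergenic peaks that rest on it alone; the part of either in the result was not tested.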

How the results depend on the processing

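No peak, intergenic or other, passed the adjusted threshold under DESeq2, DESeq2 size factors, library totals, a minimum count of 5, no filter, the batch as a replicate block (0 calls), the fit without the ribosomal rows, or with any 1 library left out; at an unadjusted p of 0.05 these gave 2 to 9 intergenic peaks. The share of intergenic reads (2.37 percentage points, sgPrdm12 minus sgNTC) kept its sign under other margins, gene sets and denominators. It was 0.744 over peaks with a read in all 4 libraries and 0.356 over tested peaks. Over tested peaks both sgPrdm12 shares lay above both sgNTC shares (exact permutation p = 0.333). With the replicate block the mean was again 2.37, but within batch 1 it was -1.60, and it was -0.100, -0.462 and -1.03 in the classes from near to far. With 1 library left out it ranged from -0.536 to 5.28, and by class from -0.0487 to 0.766, -0.0980 to 1.63 and -0.389 to 2.88; the values below 0 came without sgPrdm12 replicate 2. The comparisons with gene-end peaks kept their sign under the alternatives run: -11.3 to -5.67 reads and -27.2 to -21.5 percentage points with 1 library left out, -8.75 reads and -26.0 points at over 5000 bases from a gene end, and -33.1 points at the depth of the shallowest library. Of 196 values for 28 named peaks under alternatives that kept all libraries, 6 changed sign, all close to 0: the farther Ly6c2 peak had 0.011 under DESeq2, 0.0061 with a minimum count of 5 and 0.0052 with the replicate block, the Fos peak had 0.011 under DESeq2 and 0.0042 with the replicate block, and the Elobl peak had -0.020 with no filter. With 1 library left out, 19 of 112 values changed sign. The log2 fold changes then ranged from -1.12 to 0.49 at Ppp2r5c, -0.88 to 0.018 at Tle3, -0.55 to 0.30 at Pex2, -0.63 to 1.31 at Gm36445, -0.32 to 0.49 at Gm26901, -0.13 to 0.056 at Gm36876, -0.11 to 0.56 and -0.39 to 0.38 at the Ly6c2 pair, -0.10 to 0.078 at Fos, -1.12 to 0.13 at Gzmb, -0.091 to 0.25 at Gm38882, -0.69 to 0.059 near Zfp958 and -1.0 to 0.81 at Elobl. The causes were not tested. Depth limits single peaks: 457 of the 600 intergenic peaks held under 10 reads in each library.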
